A study of Mus musculus with 7 samples.

Results

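Cytotoxic T cells of mouse mammary tumors, here 758 of 15047 cells kept from 7 control tumors, were chosen by their unique molecular identifiers (UMIs), each of which stands for 1 captured mRNA molecule. A cell was kept with 200 to 6000 genes detected, mitochondrial genes aside. It was taken as cytotoxic T with at least 1 UMI of the CD3 genes (Cd3d, Cd3e, Cd3g, Trac), at least 2 UMIs of Nkg7, Ccl5, Gzma, Gzmb, Cd8a and Cd8b1 together, at most 1 UMI of the epithelial genes Epcam, Krt8 and Krt18, and no UMI of the macrophage genes C1qa, C1qb and C1qc. The main contrast was with 597 CD3 cells under the same epithelial and C1q limits that had no UMI of these 6 genes, called the cytotoxic genes below. Cd8a and Cd8b1 encode a co-receptor and not a killing protein, and 2 Cd8 UMIs alone made a cell a member. The contrast cells thus lack Cd8 UMIs by choice. Since the rule reads measured UMIs, the levels of its 16 genes describe the selection and were not tested.

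Cytotoxic T lymphocytes recognise peptides on MHC class I through an alpha-beta T cell receptor that signals with the CD3 chains, and CD8 (a Cd8a and Cd8b1 dimer) binds the MHC class I molecule. They kill through granules that hold perforin and granzymes, and they release chemokines such as Ccl5, Ccl4 and Xcl1 that draw other immune cells. Natural killer cells and many gamma-delta T cells use the same granules, and activated T cells can take up receptors first known from natural killer cells, such as those of the Klr family.

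The study examined hexokinase 2 (HK2), a glycolytic enzyme, in mammary tumors that the polyoma middle T oncogene (PyMT) drives from the MMTV promoter in mammary epithelium of C57BL/6 mice. All 7 tumors came from mice labelled MMTV-PyMT; HK2 f/f and wild type, with both HK2 alleles flanked by recombination sites and no Cre, and were labelled as 3 months after a tumor could be felt; per the study's methods, control mice received tamoxifen as well. Each tumor gave 1 Drop-seq library, and the titles put replicates 1 to 4 in a series named CB and replicates 5, 7 and 8 in another named WT, without saying what these names stand for. Libraries from HK2-deleted mice were not analysed here.

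Each library kept 1133 to 4780 cells, with 962677 to 4471473 UMIs in all and a median of 527 to 694 UMIs per cell. The cytotoxic T cells were shallow, with medians of 411 to 623 UMIs and 313 to 417 genes per cell across the 7 tumors. Only 5 barcodes were shared between libraries, and none belonged to a cytotoxic T cell. Doublets were not called. Of the cytotoxic T cells, 25 (3.30%) held a UMI of the PyMT transgene, against 49.0% of 6467 epithelial reference cells (at least 2 UMIs of Epcam, Krt8 and Krt18 and none of the CD3 and C1q genes), and 46.6% held a UMI of the leukocyte gene Ptprc, against 0.897% of the epithelial cells. A UMI of the T cell receptor genes Trbc1 or Trbc2, which the rule does not read, was found in 73.4% of the cytotoxic T cells and in 1.31% of the epithelial cells. The median depth was 475 UMIs in the cytotoxic T cells and 864 in the epithelial cells, so the epithelial shares came from the deeper cells; since these cells were picked for having no CD3 UMI, their shares of other T cell genes are partly set by that choice and are given as a lower guide to the background.

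The tumors differed widely in how many cytotoxic T cells they held. In the CB series 47, 137, 22 and 169 cells were found in replicates 1, 2, 3 and 4, and in the WT series 130, 249 and 4 cells in replicates 5, 7 and 8. As a share of kept cells these were 2.19%, 6.89%, 1.76% and 3.54% in the CB series and 8.39%, 11.3% and 0.353% in the WT series. The order of the tumors depended on the genes required per cell. Among cells with at least 500 genes, replicate 2 of the CB series was highest at 7.99%. Replicates 5 and 7 were then at 6.54% and 3.93%, and the WT series did not span the range of the CB series. Among all kept cells, replicates 5 and 7 had the highest shares and replicate 8 the lowest, so the WT series spanned the whole range of the CB series there. The means were 3.59% ± 2.33 (SD, n = 4) and 6.70% ± 5.69 (SD, n = 3), and the difference was within the spread between tumors (two-sided exact permutation test, p = 0.4). Among all CD3 cells the cytotoxic share was 39.2%, 30.4%, 73.3% and 35.4% in the CB series and 44.8%, 62.3% and 22.2% in the WT series, with means of 44.6% ± 19.5 (SD, n = 4) and 43.1% ± 20.1 (SD, n = 3; exact permutation test, p = 0.914). Both outer values rested on few cells, with 30 CD3 cells in replicate 3 and 18 in replicate 8. The smallest p that 35 arrangements allow is 0.0571, so neither comparison could pass 0.05. The difference in the CD3 share, CB minus WT, was 1.48 percentage points, and without replicate 3 it was -8.11 points.

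**Figure D1:**
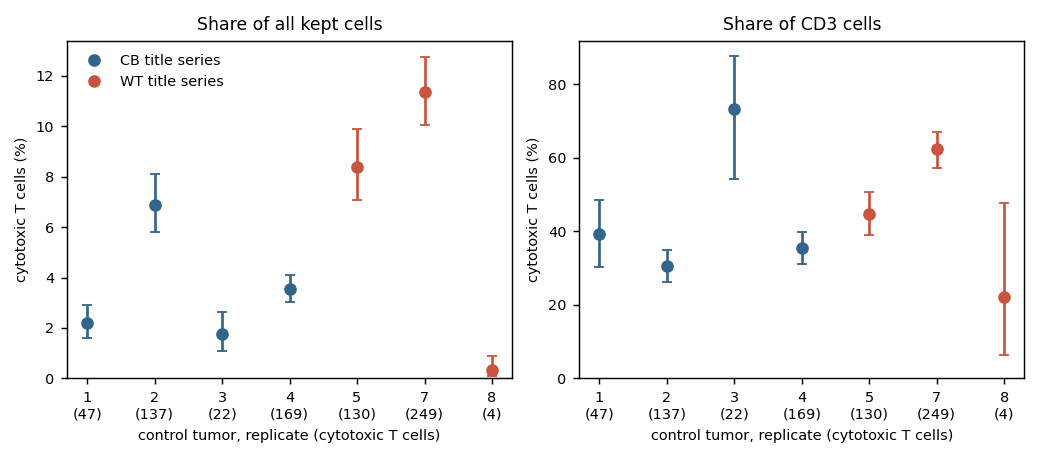
Share of cytotoxic T cells among all kept cells (left) and among CD3 cells (right), in percent, for each of the 7 control tumors, with the number of cytotoxic T cells under each replicate number. Points are shares, bars are exact 95% binomial intervals that cover counting error only, and colors mark the title series; replicates 5 and 7 stand highest on the left at 8.39% and 11.3%, and replicate 3 on the right at 73.3%.

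The cytotoxic genes were unevenly spread over the cells. Ccl5, a chemokine of activated T cells, was found in 74.3% of the cells and Nkg7, a protein of cytotoxic granules, in 72.2%, against 1.52% and 0.418% of the epithelial reference cells. A UMI of Cd8a or Cd8b1 was found in 378 cells (49.9%, exact 95% interval 46.2% to 53.5%), against 0.433% of the epithelial cells. Gzmb was found in 223 cells (29.4%) and Gzma in 65 (8.58%), so 245 cells (32.3%, exact 95% interval 29.0% to 35.8%) had a UMI of either granzyme, against 0.309% of the epithelial cells. Both a Cd8 and a granzyme UMI were seen in 89 cells, a Cd8 UMI alone in 289, a granzyme UMI alone in 156 and neither in 224, which were members through Nkg7 and Ccl5 only. At these depths a missing UMI does not show that a gene is silent.

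The Cd8 share by tumor was 57.4%, 54.7%, 31.8%, 51.5%, 45.4%, 49.0% and 25.0% in replicates 1, 2, 3, 4, 5, 7 and 8, where the 2 lowest values came from the libraries with 22 and 4 cytotoxic T cells. The granzyme share was 31.9%, 22.6%, 32.0%, 29.2% and 34.1% in replicates 1, 2, 4, 5 and 7. In replicate 3 it was 81.8%, or 18 of 22 cells, and all 4 cells of replicate 8 had a granzyme UMI. Neither of these tumors had enough cells to enter the tests given next.

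**Figure D2:**
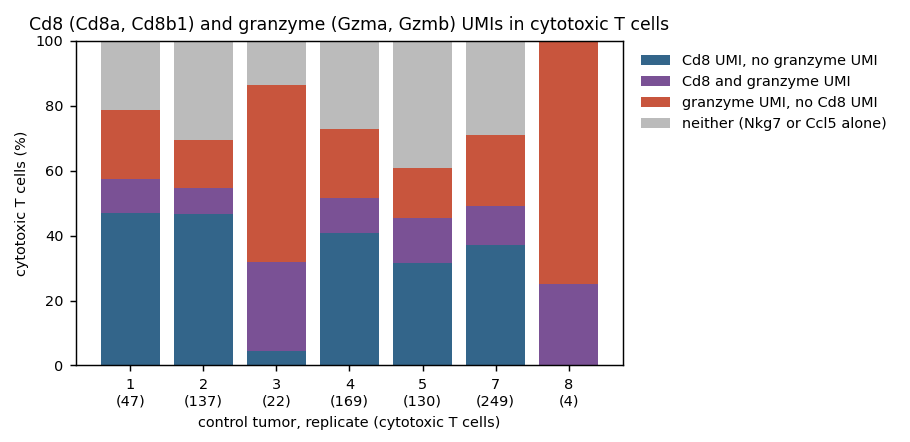
Percent of the cytotoxic T cells of each control tumor by whether a UMI of Cd8 (Cd8a or Cd8b1) and of a granzyme (Gzma or Gzmb) was found, with the number of cells under each replicate number. In the 5 tumors with 47 or more cells, 31.5% to 46.8% of the cells had a Cd8 UMI alone and 14.6% to 22.1% a granzyme UMI alone, while in replicate 3 the granzyme-only share was 54.5%.

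Constant chains of both kinds of T cell receptor were seen. Trac, the alpha chain constant gene, was found without Trdc, the delta chain constant gene, in 436 cells, Trdc without Trac in 23, both in 3 and neither in 296. A UMI of any gamma or delta constant gene was found in 207 cells (27.3%), against 0.247% of the epithelial reference cells. Trac is one of the genes of the rule, so a cell could enter through Trac but not through Trdc, and gamma genes can be transcribed in alpha-beta T cells, so these counts are no measure of lineages. Cd4, the co-receptor of helper T cells, was found in 8 cells (1.06%), and Foxp3, which marks regulatory T cells, in 0 of 758 cells, which allows a share of cells with a UMI of up to 0.396%. A UMI of the natural killer receptor genes Ncr1, Klrb1c, Klre1 or Klrd1 was found in 183 cells (24.1%), against 0.247% of the epithelial cells. Of the 758 cells, 203 (26.8%) had exactly 1 CD3 UMI and 191 (25.2%) exactly 2. For many cells, few UMIs thus separate a member from a cell counted as CD3-negative.

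The limit of 2 cytotoxic UMIs cut through a continuous range. The cells had from 2 to 94 UMIs of the 6 genes with a median of 6, and 129 of them had exactly 2. The 172 CD3 cells with exactly 1 such UMI, just outside, had 172 CPM (the UMIs of a gene scaled to 1000000 UMIs of the summed cells) of Cd7, the 129 cells just inside 265 CPM, and the 629 cells with 3 or more 1338 CPM. Ccr7 stood at 787, 436 and 110.4 CPM in the same order, Klf2 at 2596, 2476 and 715 CPM, and Ly6c2 at 603, 1090.0 and 813 CPM. Across these 3 sets the level of Cd7 was highest and that of Ccr7 lowest in the cells with 3 or more, while Ly6c2 was highest just inside the limit. These levels pool the cells of all 7 tumors in unequal shares, with 29 of the 172 and 221 of the 629 cells from replicate 7. Differences between tumors and between sets are therefore mixed.

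Cytotoxic T cells were next compared with the CD3 cells of the same tumors that had no cytotoxic UMI, in order to describe what else set them apart. UMIs were summed per mouse over each set, and the 5 tumors with at least 10 cells in both sets, replicates 1, 2, 4, 5 and 7, entered a paired test with the mouse as a block (edgeR's quasi-likelihood test, Benjamini-Hochberg adjustment). The test shares its estimate of spread across genes, so its p-values do not rest on the spread of a gene between the tumors alone. The sums held 47 to 249 cytotoxic T cells (31492 to 130746 UMIs) and 47 to 214 contrast cells (25252 to 130530 UMIs). The median depth per cell was 414 to 623 UMIs in the cytotoxic T cells and 357.5 to 455.5 UMIs in the contrast cells. Of 3522 genes tested, 132 passed (3.75%), 60 of them higher in cytotoxic T cells (1.7%) and 72 lower (2.04%). In depth-matched cells 98 of these 132 calls were kept in the same direction. The matching was incomplete. Replicate 1 had 47 cells in both sets and kept medians of 481 against 376 UMIs, and replicate 5 kept 481.5 against 399. The kept calls therefore do not show what equal depth would give. Both sets were picked by UMIs in these libraries, and genes that move with the rule genes from cell to cell had to differ. The WT series alone, with 2 tumors, gave 0 calls and 263 genes at an unadjusted p under 0.05 with edgeR, so no gene named here held its call there, apart from Igfbp4, Dcn and Col1a2, which that test did not reach. All effects are log2 differences with their standard errors. Where the 5 values of each set are said not to overlap, 2.64% of all genes tested had this.

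Killer cell receptors were higher, in 7 of 8 tested genes of the list, with a median log2 difference of 2.92 against 0.03 over all genes. Fcer1g, a signalling adaptor of activating receptors, was at 381, 906, 1077, 978 and 903 CPM in the cytotoxic T cells of replicates 1, 2, 4, 5 and 7 and at 0, 76.6, 139.8, 117 and 135 CPM in the contrast cells. The groups did not overlap, replicate 1 was lowest in both, and the log2 difference was 3.20 ± 0.25 (edgeR, adjusted p = 1.1e-09). Klrk1, which encodes the stress ligand receptor NKG2D, was at 318, 209, 195, 318 and 161 CPM against 79.2, 15.3, 17.5, 33.4 and 0 CPM (3.28 ± 0.45). It too was higher in all 5 tumors without overlap. Klra7, a Ly49 receptor, differed by 3.59 ± 0.42, Cd160 by 3.28 ± 0.52, Klrd1, which encodes CD94, by 2.32 ± 0.34, and Tyrobp, another signalling adaptor, by 1.71 ± 0.34. Klra6, a Ly49 gene outside the list, had 64 UMIs in cytotoxic T cells, at 113 to 168 CPM in the 5 tumors, and 0 in the contrast cells, and was at least 14.7-fold higher when the contrast group is set to 3 UMIs. Klra genes share long stretches of sequence, so reads may have been split among them.

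The clearest difference by adjusted p was in Cd7, a receptor of the immunoglobulin family on T and natural killer cells. It was at 1302, 1665, 1135, 1273 and 696 CPM in the cytotoxic T cells of replicates 1, 2, 4, 5 and 7 and at 79.2, 76.6, 52.4, 83.4 and 53.9 CPM in the contrast cells. The lowest cytotoxic value lay far above the highest contrast value, and the log2 difference was 4.20 ± 0.24 (edgeR, adjusted p = 9.8e-13). In the T lineage list, 4 of 20 tested genes were higher and 0 lower, with a median of 0.18. Besides Cd7 these were Ms4a4b (1.33 ± 0.15), Cd52 (0.72 ± 0.13) and Ptprc (0.72 ± 0.18), while Trbc2, the beta chain constant gene, did not pass (0.29 ± 0.13, adjusted p = 0.32). The Ptprc call was lost without replicate 4 or 7, where the difference was 0.57 each time.

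Of 9 tested effector genes outside the rule, 4 were higher and 0 lower, with 2 higher when cells holding UMIs of other types were left out and 1 with a minimum count of 10. Ctsw, a protease of killer cells, was at 539.8, 662, 939.8, 1190.2 and 994 CPM against 198, 146, 332, 150.2 and 378 CPM. It was higher in every tumor without overlap (1.95 ± 0.23, adjusted p = 8.6e-07 with edgeR). The granzyme inhibitors Serpinb6b and Serpinb9 differed by 3.52 ± 0.56 and 2.50 ± 0.46, and Ifng, which encodes interferon gamma, by 2.50 ± 0.62, a call that was lost without replicate 4 (2.27) or 7 (2.08). Gzmc, a further granzyme, did not pass (1.43 ± 0.46, adjusted p = 0.09 with edgeR). Its contrast level was 873 CPM in replicate 2 and 0 to 17.5 CPM in the other tumors. Perforin, Prf1, was found in 20 cytotoxic T cells (2.64%) and had too few UMIs to be tested. Granzyme genes lie in a cluster of similar sequence and may share reads.

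Among 5 tested chemokine and chemokine receptor genes, Ccl4 and Xcl1 were higher and Ccr2 was lower. Ccl4, an inflammatory chemokine, was at 127, 218, 481, 224 and 604 CPM in the cytotoxic T cells and at 0, 30.6, 17.5, 0 and 27.0 CPM in the contrast cells (3.93 ± 0.44). Xcl1, which attracts cross-presenting dendritic cells, was at 539.8, 1682, 1937, 1649.7 and 2134 CPM against 1069, 260.5, 0, 200.2 and 162 CPM. It was higher in 4 of 5 tumors, with replicate 1 the other way round, and the log2 difference was 2.66 ± 0.39 (edgeR, adjusted p = 3.3e-05). The Ccr2 difference of -1.86 ± 0.47 was lost without replicate 4 (-1.38) or 7 (-1.42).

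**Figure D3:**
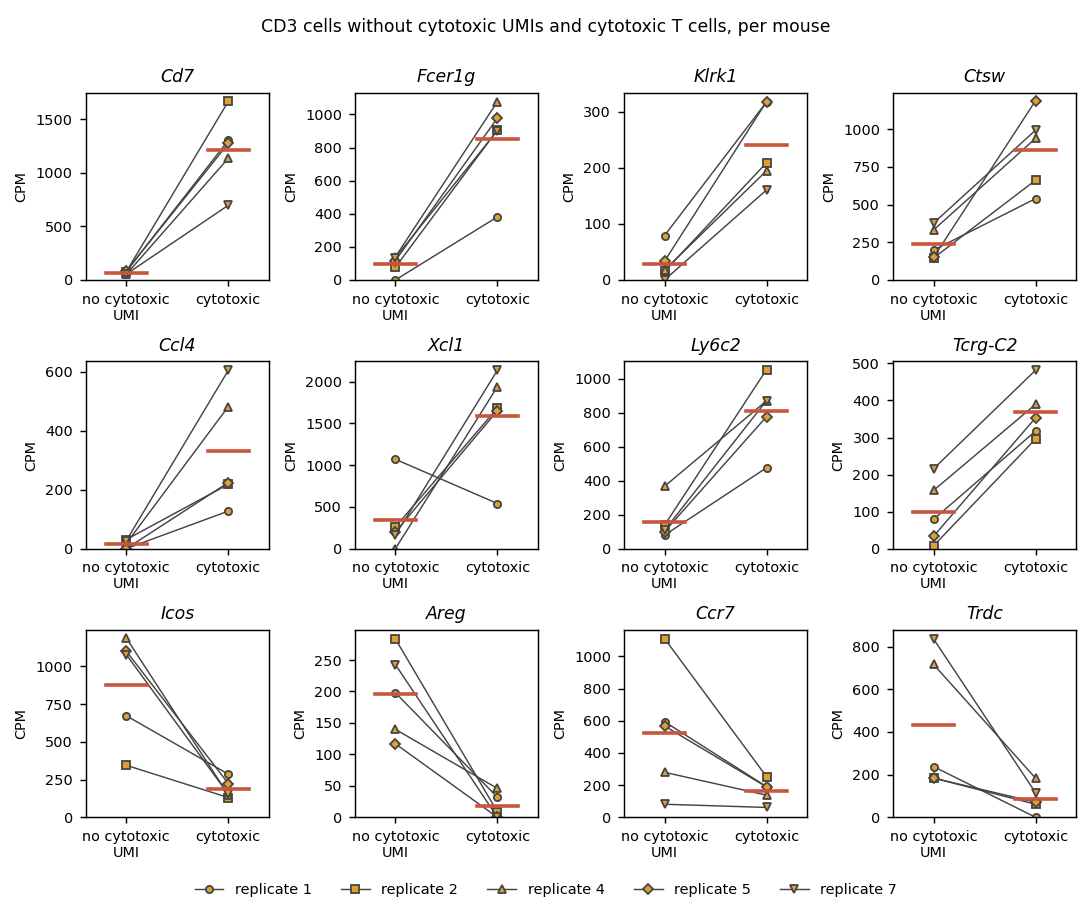
Level in CPM (UMIs scaled to 1000000 per sum) of 12 genes outside the rule, summed over the CD3 cells without cytotoxic UMIs (left in each panel) and over the cytotoxic T cells (right) of 5 control tumors. Lines join the 2 sums of 1 tumor and red bars are means over tumors; Cd7 is higher in cytotoxic T cells in all 5 tumors, Xcl1 in 4, and Icos, Areg, Ccr7 and Trdc are lower in all 5.

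Genes of naive and memory T cells were lower in 6 of 12 tested genes and higher in 0, with a median of -0.97. Without replicate 2 the list had 2 lower calls, 3 with DESeq2 or in depth-matched cells, and 1 without the mouse block or among cells with at least 500 genes. The fit with at least 500 genes held replicates 2, 4 and 5 only, as replicates 1 and 7 kept 6 and 7 contrast cells. Ccr7, the receptor that leads T cells into lymph nodes, was at 191, 253, 138, 189 and 61.2 CPM in cytotoxic T cells and at 594, 1111, 279.6, 567 and 80.9 CPM in the contrast cells. It was lower in every tumor, most in replicate 2, although the groups overlapped (-1.57 ± 0.26, adjusted p = 1.2e-04 with edgeR). Igfbp4 differed by -2.98 ± 0.47. S1pr1, needed for exit from lymph nodes, differed by -1.71 ± 0.41, a call lost without replicate 2 (-1.66), and Klf2, which drives S1pr1, by -0.65 ± 0.16, lost without replicate 2 (-0.60) or 5 (-0.47). Lef1, a factor of naive T cells, differed by -1.13 ± 0.33, a call lost without replicate 2 (-1.23), 4 (-1.03) or 5 (-0.89), and Il7r, the interleukin 7 receptor, by -1.75 ± 0.43, lost without replicate 4 (-1.38) or 7 (-1.13).

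Of 7 tested helper and regulatory genes, 3 were lower and 0 higher, with 6 lower without a filter on low counts and 1 with a minimum count of 10. Cells with a Cd8 UMI were barred from the contrast, so genes of T cells without Cd8 had to differ. Icos, a costimulatory receptor, was at 286, 131, 149, 224 and 153 CPM against 673, 345, 1188, 1101 and 1079 CPM in the contrast cells. The groups did not overlap (-2.23 ± 0.24, adjusted p = 2.8e-07 with edgeR). Tnfrsf4, which encodes the costimulatory receptor OX40, was at 0 to 45.9 CPM against 80.9 to 673 CPM (-3.15 ± 0.48), and Areg, a growth factor made by tissue-resident helper-type cells, at 0 to 45.8 CPM against 117 to 283 CPM (-3.71 ± 0.56).

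Genes of gamma-delta T cells moved in both directions, with 1 of the list higher and 2 lower, and 4 lower without replicate 1 or 2. Trdc was lower in cytotoxic T cells, at 0, 61.0, 183, 70.7 and 115 CPM against 238, 184, 716, 184 and 836 CPM (-2.15 ± 0.32), and Maf, a factor of interleukin 17 producers, differed by -2.06 ± 0.39. Tcrg-C2, a gamma chain constant gene, was higher, at 318, 296, 389.7, 354 and 482 CPM against 79.2, 7.66, 157, 33.4 and 216 CPM (2.22 ± 0.38). The groups did not overlap for any of these genes. The other 2 tested genes of the list did not pass, Tcrg-C1 at -1.26 ± 0.39 (adjusted p = 0.066) and Tcrg-C4 at 1.07 ± 0.48 (adjusted p = 0.32), and Tcrg-C1 and Tcrg-C2 are near copies of each other.

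Among genes of MHC class I and the interferon response, 6 of 17 tested were higher and 1 was lower, and the lower call was lost without replicate 4 or 7. Without cells holding UMIs of other types 1 was higher. Ly6c2, a surface protein of memory CD8 T cells and monocytes, was at 476, 1054, 871, 778 and 872 CPM against 79.2, 138, 367, 100.1 and 108 CPM (2.42 ± 0.26), and the groups did not overlap. The immunoproteasome genes Psmb8 and Psmb9 differed by 0.85 ± 0.17 and 1.31 ± 0.30, and the class I gene H2-Q7 by 0.79 ± 0.15.

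Activation genes did not move as 1 group. In the checkpoint and activation list 2 of 12 tested genes were higher, Nr4a2 (1.76 ± 0.24) and Rgs1 (0.99 ± 0.15), and 1 was lower, Nr4a1 (-1.32 ± 0.23), all of them induced after receptor signalling; without replicate 1 or 2, 4 genes of the list were higher. Of 15 immediate early genes 6 were lower and 0 higher, with a median of -0.58, but lower calls came to 3 without replicate 1, without replicate 4 or with DESeq2, to 0 without the mouse block, and to 1 among cells with at least 500 genes or without cells holding UMIs of other types. Nfkbia, an inhibitor of NF-kB, was at 1238, 1168, 1467, 872 and 1537 CPM against 2653, 1877, 3023, 2069 and 3182 CPM without overlap (-0.99 ± 0.12), and Zfp36 differed by -1.22 ± 0.22 and Fos by -0.80 ± 0.15. The calls of Egr1 (-1.10), Jund (-0.58) and Atf3 (-1.20) were each lost without replicate 1 (-0.91, -0.54 and -1.10) or 4 (-1.02, -0.58 and -1.44). Leaving out other tumors also ended the calls of Egr1 (replicate 7, -0.92), Jund (replicate 2, -0.60) and Atf3 (replicate 2, -0.91, and replicate 5, -1.13). Immediate early genes also respond to the dissociation of a tissue, whose part in the difference was not tested. None of 13 cell cycle genes and none of 9 lymphocyte transcription factors passed, although 1 transcription factor was higher without replicate 1 or 2.

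Markers of other cell types differed as well. All 3 tested fibroblast genes were lower in cytotoxic T cells, with log2 differences of -4.70 ± 0.43 for Dcn, -4.04 ± 0.33 for Col1a2 and -3.71 ± 0.31 for Sparc. Among cells with at least 2 CD3 UMIs the Sparc difference was -0.59 and its call was lost (edgeR, adjusted p = 0.75). The summed level of the 5 fibroblast genes was 58.9 to 389.7 CPM in the cytotoxic T cells and 200.2 to 9466 CPM in the contrast cells, and all 5 had UMIs in both. Without the cells holding a fibroblast UMI, a choice made after seeing the data, 52 genes were higher and 57 lower, and 95 of the 132 calls were kept in the same direction. Of 7 tested epithelial markers 1 was lower (Csn3, -0.76 ± 0.18), a call lost without replicate 1 (-0.62) or 7 (-0.58), with 2 of the list lower without replicate 4, and the 12 listed genes summed to 553.8 to 4375 CPM against 717 to 8037 CPM. None of 2 macrophage, 4 MHC class II, 2 B cell and 3 erythroid genes passed, although 1 macrophage gene was lower without replicate 1, 2 or 5, 2 MHC class II genes were lower without replicate 5, and 1 erythroid gene was higher without replicate 1. With cells holding UMIs of other types left out, 37 genes were higher and 28 lower. In this contrast these were cells with a UMI of Lyz2, Cd79a, Cd79b, S100a8, S100a9, Wfdc18, Csn3 or PyMT.

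Several of these calls depended on the settings. They were lost without cells holding UMIs of other types for Ptprc, H2-Q7, Psmb8, Psmb9, Maf, Zfp36, Fos, Egr1, Jund, Atf3 and Pkm, and among cells with at least 500 genes for Tyrobp, Ccl4, Ccr2, Ptprc, Nr4a1, Psmb8, Psmb9, Trdc, Klf2, Il7r, Lef1, Zfp36, Fos, Egr1, Jund, Atf3 and Pkm. With at least 500 genes only replicates 2, 4 and 5 entered, so that fit had fewer tumors as well as fewer cells. DESeq2 did not call Xcl1, Ifng, Ccr2, Ptprc, Klf2, Il7r, Lef1, Egr1, Jund, Atf3 or Pkm, the CB series alone not Ifng, Psmb9, Maf, Klf2, S1pr1, Il7r, Lef1, Jund, Pkm or Csn3, and a test without the mouse block not Tyrobp, Ccr2, Cd52, Ptprc, Rgs1, H2-Q7, Psmb8, Ccr7, Klf2, S1pr1, Il7r, Lef1, Nfkbia, Zfp36, Fos, Egr1, Jund, Atf3, Pkm or Csn3. Against CD3 cells without cytotoxic UMIs that were not limited in epithelial and C1q UMIs, 291 genes were higher and 390 lower. Ccr2, Klf2, S1pr1, Il7r and Lef1 then lost their calls, the naive and memory list had 2 higher and 2 lower, and higher calls came to 12 in the T lineage, 10 in the checkpoint and activation, 7 in the effector, 6 in the transcription factor and 4 in the cell cycle list. Lower calls then came to 11 in the immediate early, 9 in the epithelial, 4 in the MHC class II and 3 in the macrophage list.

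Hk2, the gene of the study, was scarce in these cells. Of 758 cytotoxic T cells 3 had an Hk2 UMI (0.396%), as had 19 of 597 contrast cells (3.18%) and 4.89% of the epithelial reference cells. By tumor the level was 0, 0, 22.9, 0 and 7.65 CPM in the cytotoxic T cells of replicates 1, 2, 4, 5 and 7 and 0, 61.3, 105, 50.1 and 53.9 CPM in the contrast cells. The gene was too low to be tested across mice. Summed over the 5 tumors the contrast cells had 9.17 times the Hk2 UMIs per UMI of the cytotoxic T cells, with an exact counting interval of 2.70 to 48.4 that leaves out the spread between mice. The contrast sums also held more UMIs of the 5 fibroblast genes (907 against 79) and a higher median level of the epithelial list (3705 against 2540 CPM). Whether RNA of other cells brought in Hk2 UMIs was not tested. Hk1, the more widely expressed hexokinase, was found in 1.98% of the cytotoxic T cells and did not pass (-0.75 ± 0.70, adjusted p = 0.75). Of 11 tested glycolysis genes only Pkm, which encodes pyruvate kinase, passed and was lower (-0.88 ± 0.24, adjusted p = 0.028). Its call was lost without replicate 2 (-0.97), 4 (-0.82), 5 (-0.89) or 7 (-0.83), and without replicate 1 the list had 2 lower calls.

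The same differences were compared between the title series by an interaction term. None of 3522 genes passed (edgeR), and 101 had an unadjusted p under 0.05. With 3 and 2 tumors in the series, this does not show that the differences were alike.

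Cytotoxic T cells with and without a granzyme UMI were compared within the same 5 tumors, to see how the cells varied among themselves. The sums held 223 granzyme-positive cells (9820 to 54940 UMIs per tumor) and 509 granzyme-free cells (21672 to 75806 UMIs). By tumor, the median depth per cell was 494 to 898 UMIs in the granzyme-positive and 378.5 to 591.5 UMIs in the granzyme-free cells. Of 2501 genes tested, 129 passed (5.16%), 40 higher in granzyme-positive cells (1.6%) and 89 lower (3.56%). In depth-matched cells 61 of these 129 calls were kept in the same direction. Here too matching left gaps, with medians of 518 against 464 UMIs in replicate 1 and sums of 40426 against 29773 UMIs in replicate 2. Without replicate 2 the counts were 22 and 36, without replicate 4 24 and 56, and without replicate 5 26 and 44. DESeq2, which gave an adjusted p for 222 genes only, called 8 and 54. The values of the 5 tumors did not overlap between the sets in 2.2% of all genes tested. The split was made on Gzma and Gzmb UMIs in these libraries, so genes that move with the granzymes from cell to cell had to differ. A granzyme-free cell had to reach 2 UMIs with Nkg7, Ccl5 and Cd8 alone, so the rule genes are coupled, and Cd8b1 was at 157 to 916 CPM in granzyme-positive and 831 to 1356 CPM in granzyme-free cells.

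Cd7 again stood apart. It was at 3971, 3760.0, 2349, 2949.9 and 1493 CPM in the granzyme-positive cells of replicates 1, 2, 4, 5 and 7 and at 92.3, 525, 434, 485 and 119 CPM in the granzyme-free cells. Even the lowest granzyme-positive sum, in replicate 7, was above all granzyme-free sums (2.84 ± 0.20, adjusted p = 8.0e-41 with edgeR). A p this small rests on the spread shared across genes and does not measure the spread of Cd7 over 5 tumors. The same holds for the p-values of Xcl1 and Klf2 below. Fcer1g was at 916, 1954, 2161, 2028 and 1875 CPM against 138, 336, 452, 485 and 198 CPM, again without overlap (2.37 ± 0.22). Of 9 killer receptor genes 5 were higher and 0 lower, with 2 higher among cells with at least 500 genes and 1 without cells holding UMIs of other types. Among the 5 were Tyrobp (1.60 ± 0.28), Klra7 (1.34 ± 0.29) and Klrb1c, which encodes NK1.1 (2.27 ± 0.54, and 1.54 without replicate 7, when the call was lost). Outside the list, the Ly49 genes Klra5 (3.52 ± 0.49) and Klra1 (2.38 ± 0.44) and Fgl2, a secreted fibrinogen-like protein (2.95 ± 0.49), were higher in all 5 tumors.

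Xcl1 was at 1222, 3240.5, 4196, 2397 and 4077 CPM in granzyme-positive cells and at 231, 834, 633, 1299 and 726 CPM in granzyme-free cells. It was higher in each tumor, although replicate 1 of the first group lay below replicate 5 of the second (1.90 ± 0.18, adjusted p = 4.6e-23 with edgeR). Among effector genes 3 of 10 were higher and 2 lower, but 1 was higher without replicate 2 or 4, and 1 was lower without replicate 1, 4 or 5 and 0 without replicate 7. Gzmc was at 0, 1880.0, 1378, 369 and 437 CPM against 0, 283, 470.0, 69.3 and 0 CPM, higher in 4 of 5 tumors and absent from replicate 1 (2.30 ± 0.30). Gzmk, a granzyme of memory-type CD8 T cells, went the other way (-2.59 ± 0.56), a call lost without replicate 7 (-1.89). The Serpinb9 difference of 1.22 ± 0.37 was not called without replicate 2 (0.75) or 4 (1.09), nor that of Serpinb6b (1.11 ± 0.36) without replicate 2 (0.81), 4 (0.91) or 5 (1.03). Ifng, higher in the comparison with CD3 cells, was lower here (-1.99 ± 0.61), which was lost without replicate 1 (-1.85), 4 (-2.06) or 5 (-1.79).

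Itgae, the integrin CD103 that holds T cells in epithelia, was at 0, 322, 376, 406 and 218 CPM in granzyme-positive and at 0, 40.4, 72.3, 52.0 and 39.6 CPM in granzyme-free cells (2.49 ± 0.47). In the checkpoint and activation list 4 of 12 tested genes were higher and 1 lower. Without replicate 1 the counts were 3 and 3, and 1 was higher without the mouse block or among cells with at least 500 genes. Tnfrsf9, the costimulatory receptor 4-1BB, was at 204, 346, 469.7, 737 and 328 CPM against 0, 53.8, 163, 121 and 106 CPM without overlap (1.98 ± 0.37), and Rgs1, a brake on chemokine receptor signalling, differed by 1.25 ± 0.16. Pdcd1, which encodes PD-1, was lower (-1.95 ± 0.56, adjusted p = 0.017), a call that was lost without replicate 7 (-0.80).

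Genes of naive and memory T cells were lower in granzyme-positive cells, in 7 of 9 tested genes with a median of -2.19 against -0.04 over all genes. The count was 4 without replicate 1 or 5, 2 without replicate 2, in depth-matched cells or without the mouse block, and 1 where a Cd8 UMI was required or cells with UMIs of other types were left out. Klf2 was at 1018, 272, 93.9, 36.9 and 127 CPM in granzyme-positive and at 1569, 2799, 1374, 1091 and 396 CPM in granzyme-free cells. It was lower in every tumor, with replicate 1 apart from the rest of its group (-2.86 ± 0.27, adjusted p = 3.4e-23 with edgeR). Ccr7 had 2 UMIs in the granzyme-positive and 69 in the granzyme-free cells, 19.9 times more per UMI in the latter with an exact counting interval of 5.30 to 168. Dapl1 differed by -3.48 ± 0.58, and Tcf7, a factor of naive and stem-like T cells, by -2.27 ± 0.65, which was lost without replicate 1 (-2.02) or 5 (-2.15). Ly6c2 was at 305, 247, 93.9, 332 and 509.6 CPM against 554, 1494, 1319.6, 987 and 1134 CPM without overlap (-2.06 ± 0.25).

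In the T lineage list 6 of 19 tested genes were lower and Cd7 alone was higher, and 2 were lower among cells with at least 500 genes or without the mouse block. Lat, the adaptor of the T cell receptor, was at 204, 223, 219, 147 and 72.8 CPM in granzyme-positive and at 599.9, 377, 488, 468 and 449 CPM in granzyme-free cells. The groups did not overlap (-1.62 ± 0.34, adjusted p = 1.7e-04 with edgeR). Cd28, the main costimulatory receptor of T cells, differed by -2.62 ± 0.51, Thy1 by -0.92 ± 0.22 and Ms4a4b by -0.84 ± 0.17.

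**Figure D4:**
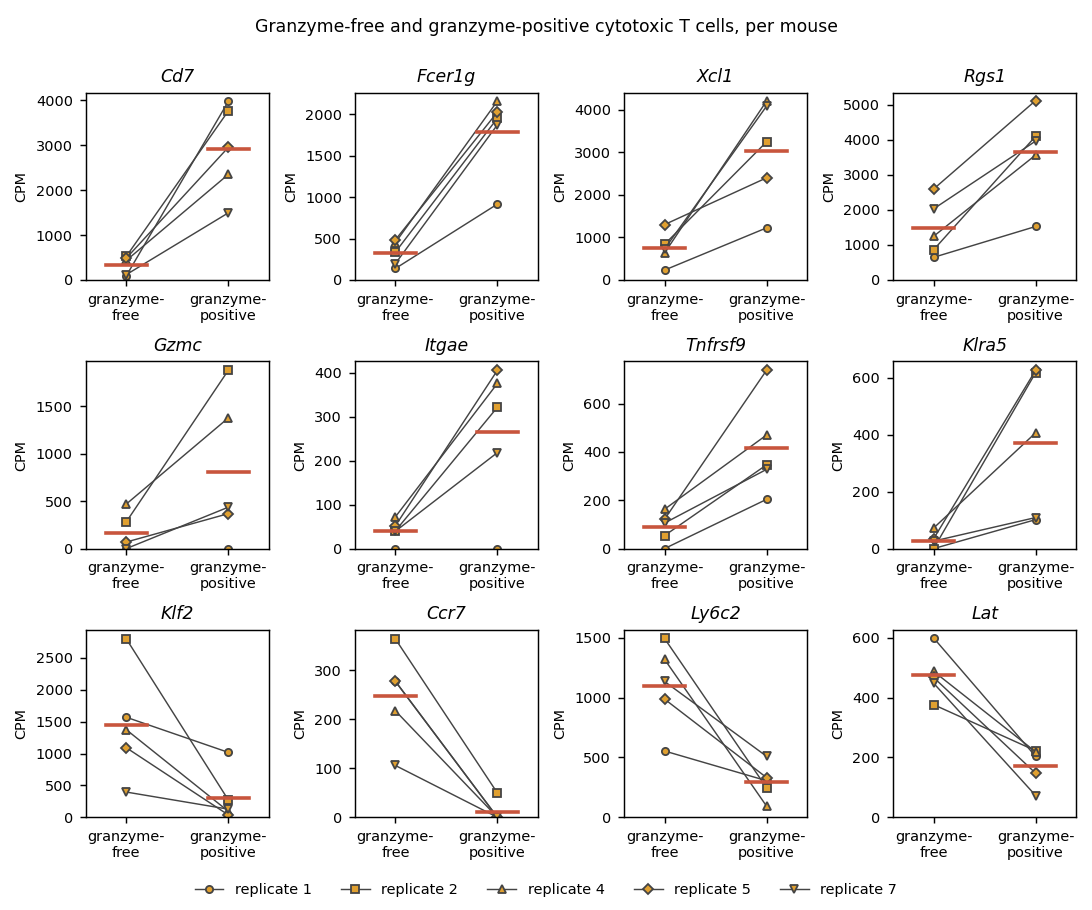
Level in CPM (UMIs scaled to 1000000 per sum) of 12 genes outside the rule, summed over the granzyme-free (left in each panel) and granzyme-positive (right) cytotoxic T cells of 5 control tumors. Lines join the 2 sums of 1 tumor and red bars are means over tumors; Cd7, Fcer1g, Xcl1 and Rgs1 are higher and Klf2, Ly6c2 and Lat lower in granzyme-positive cells in all 5 tumors.

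The split was repeated where both sets of cells had a Cd8 UMI, an alternative added after seeing the data, which kept 49 of the 129 calls in the same direction. Replicate 1, with 5 granzyme-positive cells left, did not enter. The values are those of replicates 2, 4, 5 and 7 and are not set against those of the 5 tumors. There Cd7 differed by 2.79, Fcer1g by 3.86, Xcl1 by 3.58, Klf2 by -3.52 and Ly6c2 by -2.08, and all passed, while Klra7, Serpinb9, Serpinb6b, Pdcd1, Thy1 and H2-Ab1 lost their calls and the counts over all genes were 19 higher and 41 lower. Cd7, Fcer1g, Xcl1, Klf2 and Ly6c2 were called under each of the 18 alternatives run for this comparison, the 5 that left out 1 tumor included. Of these alternatives, sets of at least 20 cells repeated the fit without replicate 1. Those with at least 500 genes, without cells holding UMIs of other types, with a Trac UMI or with a Cd8 UMI lacked replicate 1 too. Markers of other cells moved with the granzyme split too. Of 4 MHC class II genes 3 (Cd74, H2-Aa and H2-Ab1) were lower in granzyme-positive cells, which were not called where a Trac UMI was required, with a summed list level of 36.9 to 908 CPM against 231 to 2269 CPM and 4 of 6 listed genes found against 5. Of 5 epithelial markers 2 (Csn3 and Spp1) were lower, with a summed list level of 406 to 3507 CPM against 623 to 5540.5 CPM, and the hemoglobin gene Hbb-bs was lower (-2.78 ± 0.29), at 0 to 709.9 CPM against 0 to 4845 CPM. The call of H2-Aa was lost without replicate 2 (-1.27) or 5 (-1.29), that of H2-Ab1 without replicate 2 (-1.02) or 5 (-0.60), that of Spp1 without replicate 2 (-1.51) or 7 (-1.03), and that of Csn3 without replicate 1 (-0.77), 2 (-0.64), 5 (-0.81) or 7 (-0.56). When cells with UMIs of other types were left out, 7 genes were higher and 11 lower, and Klra1, Klra7, Fgl2, Tyrobp, Serpinb9, Serpinb6b, Lat and Thy1 lost their calls. For the granzyme contrast Cd74, H2-Aa, H2-Ab1, H2-Eb1 and Hbb-bs were added to the genes that barred a cell in the main contrast. Klra7, Fgl2, Tyrobp, Serpinb9, Serpinb6b, Tnfrsf9, Lat, Thy1 and Csn3 lost theirs among cells with at least 500 genes, and Gzmc, Gzmk, Serpinb9, Serpinb6b, Ifng, Rgs1, Pdcd1, Dapl1, Tcf7, Thy1, Ms4a4b, Cd74, H2-Aa, H2-Ab1, Csn3, Spp1 and Hbb-bs without the mouse block.

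**Figure D5:**
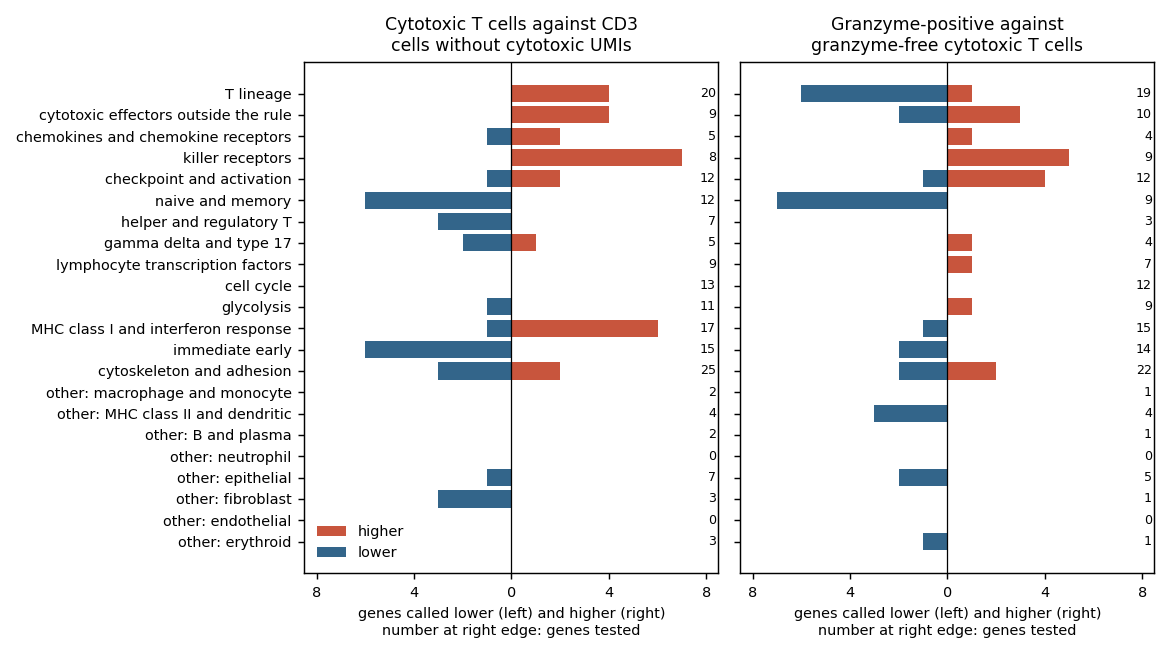
Number of genes in each list that passed the test (edgeR, adjusted p under 0.05) as higher (right of 0) or lower (left of 0) in cytotoxic T cells than in CD3 cells without cytotoxic UMIs (left panel) and in granzyme-positive than in granzyme-free cytotoxic T cells (right panel), with the number of genes tested at the right edge. Killer receptors were higher in both panels (7 of 8 and 5 of 9) and naive and memory genes lower (6 of 12 and 7 of 9); the panels share cells and are no independent repeats.

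Last, the cytotoxic T cells were compared with 117 killer-type cells of these tumors without CD3 or Cd8 UMIs that had at least 2 UMIs of Nkg7, Ccl5, Gzma and Gzmb and 1 of Ncr1, Klrb1c, Klre1 or Klrd1. Replicates 2, 4, 5 and 7 entered with 685 cytotoxic T cells and 107 killer-type cells. Of 3235 genes tested, 71 passed (2.19%), 51 higher in cytotoxic T cells (1.58%) and 20 lower (0.618%). The median log2 difference over all genes was 0.23 and not 0, and with DESeq2's size factors in the same test it was 0.098, with 25 genes higher and 23 lower, whereas scaling from all genes with a UMI gave 306 higher. Without replicate 2 the counts were 19 and 13, without replicate 4 16 and 16, without replicate 5 15 and 11, and without replicate 7 56 and 13. The 4 values of each set did not overlap in 5.97% of all genes tested. Markers of other cell types moved here too. Of 7 epithelial markers 1 was higher (Csn3), a call lost without replicate 7 (0.79). The 1 erythroid gene tested, Hbb-bs, was higher (1.02), a call lost without replicate 5 (1.09). None of 4 MHC class II genes passed, with a median of 1.47.

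Of 19 tested T lineage genes 4 were higher in the cytotoxic T cells (Trbc2, Thy1, Bcl11b and Lat) and 0 lower, with 2 higher without replicate 2, 4 or 5 1 with DESeq2 or without the mouse block and 13 with scaling from all genes, and of 5 gamma-delta genes 1 was higher and 0 lower. The killer-type cells had been chosen for lacking CD3 UMIs, so genes that go with CD3 had to differ. Trbc2 was at 1865, 2487, 1933 and 3342 CPM in the cytotoxic T cells of replicates 2, 4, 5 and 7 and at 362, 631, 342 and 421 CPM in the killer-type cells (2.77 ± 0.26). Tcrg-C2 was at 296, 389.7, 354 and 482 CPM against 0, 63.1, 68.5 and 70.1 CPM (3.07 ± 0.55). Neither gene overlapped between the groups. Thy1 (1.21 ± 0.28, not called by DESeq2), the activation marker Cd69 (2.46 ± 0.44), Ly6c2 (2.02 ± 0.32) and the interferon-induced Ifi27l2a (3.39 ± 0.44) were higher as well, as was Klf2 (1.94 ± 0.33), whose call was lost without replicate 2 (1.15) or without the mouse block. Ccr7 had 65 UMIs in the cytotoxic T cells and 0 in the killer-type cells, at least 3.78-fold higher against 3 UMIs in the group. Bcl11b had 48 UMIs against 0, at least 2.79-fold higher on the same floor, and its call was lost with any of the 4 tumors left out, as was that of Lat (1.56 ± 0.45) without replicate 2 (1.52), 4 (1.46) or 5 (1.36).

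Of 10 tested effector genes 2 were lower in the cytotoxic T cells and 0 higher (1 higher without replicate 2), and of 9 killer receptor genes 3 were lower and 0 higher; the other genes of both lists did not pass. The killer-type cells had been chosen by UMIs of granule genes and of natural killer receptors, so genes that go with these had to differ. Gzmc was at 845, 802, 165 and 184 CPM in the cytotoxic T cells and at 6583, 7883, 4245 and 9539 CPM in the killer-type cells (-3.68 ± 0.20, adjusted p = 1.4e-69 with edgeR). This p too rests on the spread shared across genes and does not measure the spread of Gzmc over 4 tumors. Prf1 was at 43.6, 68.8, 11.8 and 61.2 CPM against 362, 441, 548 and 210.4 CPM (-2.59 ± 0.53), a call lost without replicate 5 (-2.11). Tyrobp was at 514, 481, 329.9 and 337 CPM against 1591, 2649, 2602 and 2700.4 CPM. These 3 genes did not overlap between the groups, and the Tyrobp difference was -2.24 ± 0.22. Fcer1g differed by -1.32 ± 0.20, the chemokine receptor gene Ccr2 by -2.70 ± 0.53, the transcription factor gene Irf8 by -2.07 ± 0.36 and Klrb1b, a lectin-like receptor, by -4.29 ± 0.65. Klra8, which encodes the activating receptor Ly49H, had 2 UMIs in the cytotoxic T cells and 64 in the killer-type cells, 184 times more per UMI in the latter with an exact counting interval of 48.8 to 1548. The Ly49 gene Klra6 went the other way, with 59 UMIs in the cytotoxic T cells and 0 in the killer-type cells, at least 3.43-fold higher against 3 UMIs in the group. By contrast Xcl1 (-0.48 ± 0.19, adjusted p = 0.20), Ctsw (-0.33 ± 0.22, adjusted p = 0.64) and Ccl4 (-0.36 ± 0.30, adjusted p = 0.76) did not pass.

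In the mouse genome build GRCm38 (mm10, GENCODE vM21), the genes on which these comparisons turn lie at the following places. Cd7 lies on chromosome 11 from 121036747 to 121039418 on the minus strand, and Ccr7 on the same chromosome from 99144196 to 99155077 on the minus strand. Fcer1g (171229572 to 171234365) and Xcl1 (164931644 to 164935527) lie on the minus strand of chromosome 1. Klf2 lies on chromosome 8 from 72319033 to 72321656 on the plus strand, and Ly6c2 on chromosome 15 from 75108158 to 75111970 on the minus strand. Gzmb (56258838 to 56262260) and Gzmc (56231441 to 56234656) are neighbours on the minus strand of chromosome 14. All are annotated as protein coding.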

How the data were processed

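Dissociated cells of each control tumor went through Drop-seq, which captures mRNA of single cells in droplets, as 1 library. The authors made a table of raw UMI counts per gene and barcode for each library, and deposited it; per the study's methods, reads were aligned to mm10 with the PyMT sequence added, while the submitters' processing notes name STAR, FastQC and the human build hg19. The genes carry mouse symbols. Versions, strand handling and annotation are not given in the sources used here.

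Mitochondrial genes, listed in 2 of 7 tables, were dropped, since the others lack them, and barcodes with 200 to 6000 genes were kept. Counts were summed per mouse and set of cells (at least 10 cells each) and tested with edgeR 4.0.16 in R 4.3.3 (quasi-likelihood test, mouse as block, TMM scaling, filterByExpr with a minimum count of 3 and a total of 15, Benjamini-Hochberg threshold 0.05). The 16 rule genes were not tested, nor, against killer-type cells, Ncr1, Klrb1c, Klre1 and Klrd1. Shares were compared by an exact permutation test in scipy 1.17.1. Alternatives included DESeq2 1.42.0, other filters and scaling, stricter cell limits, depth-matched cells and each mouse left out.

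The members and gene lists were chosen with earlier results of these data known. Scaling factors were first taken from all genes with a UMI and, after results had been seen and the fits had been tested on simulated data, from the genes of the filter only; the first scaling is kept as an alternative. Genes open to naming were the rule genes, Hk1, Hk2, PYMT and up to 6 members of each list, called ones first. Added to these were the 12 largest upward and 8 largest downward calls with 1 direction in all mice. The threshold and figure panels show some of these, chosen after their values were seen. Not all such genes are named in the text. Among those left out were Pxdc1 and Ly6c1, lower in cytotoxic T cells in the main contrast (1 against 30 and 3 against 36 UMIs). The mouse block joins 2 sums of 1 library; their deviations from the group means correlated in every mouse, at r = 0.136 to 0.321 in the main contrast and 0.125 to 0.257 in the granzyme contrast, across genes. Replicates are separate libraries in the labels. UMIs count molecules, and intervals and floors cover counting error only.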

Additional observations from a re-analysis of the deposited data

Results flagged for a closer look

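A value was singled out where the highest or lowest of 4 to 10 tumors lay far from the rest (Dixon's ratio at the 95% level). Of 224 groups examined 16 met this (7.14%). Chance gives about 1 in 20 for normally distributed values only. Some groups were 0 in all tumors but 1, so 7.14% cannot be set against that rate.

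The granzyme share of cytotoxic T cells in replicate 3 was 81.8% (18 of 22 cells), against 22.6% to 34.1% in the other 5 tumors with 22 or more such cells. In the cytotoxic T cells as a whole, Fcer1g was low in replicate 1 (381 CPM, others 903 to 1077 CPM), and in the granzyme-positive cells it was again low in replicate 1 (916 CPM, others 1875 to 2161 CPM). In the CD3 cells without cytotoxic UMIs, Gzmc was high in replicate 2 (873 CPM, others 0 to 17.5 CPM) with UMIs in 3 of the 597 cells, Xcl1 in replicate 1 (1069 CPM, others 0 to 260.5 CPM), Nr4a1 in replicate 2 (651 CPM, others 356 to 437 CPM) and Ly6c2 in replicate 4 (367 CPM, others 79.2 to 138 CPM).

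Among granzyme-positive cells, Klrb1c was high in replicate 7 (419 CPM, others 98.9 to 188 CPM), Klf2 in replicate 1 (1018 CPM, others 36.9 to 272 CPM), Il7r in replicate 5 (110.6 CPM, others 0 to 31.3 CPM) and Cd74 in replicate 2 (223 CPM, others 0 to 62.6 CPM). Ccr7 (49.5 CPM) and Dapl1 (98.9 CPM) were found there in replicate 2 only. Among granzyme-free cells, Gzmk was high in replicate 7 (620.0 CPM, others 40.4 to 184.6 CPM), Spp1 in replicate 7 (818 CPM, others 17.3 to 138 CPM) and Cd44 in replicate 5 (259.8 CPM, others 92.3 to 127 CPM).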

How the results depend on the processing

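For the gene values named, 991 of 1216 alternative values in the main contrast, 202 of 248 against killer-type cells and 510 of 711 in the granzyme contrast kept their direction and side of the threshold. Where an alternative gave no adjusted p for a gene, that value was left out of these counts. Sets of at least 20 cells could change nothing in the main contrast. They repeated the fit without replicate 1 in the granzyme contrast and that without replicate 2 against killer-type cells. With at least 500 genes per cell the main contrast held replicates 2, 4 and 5 only. The granzyme fits with at least 500 genes, a Trac UMI, a Cd8 UMI or no UMIs of other types lacked replicate 1. The direction turned for Csn3 in the main contrast among cells with at least 500 genes (0.54) and for Hbb-bs against killer-type cells with DESeq2 (-0.46). In the main contrast (60 higher, 72 lower) the counts were 38 and 47 with DESeq2, 33 and 32 without the replicate block, 291 and 390 with contrast cells free of the epithelial and C1q limits, 37 and 28 without cells holding UMIs of other types, and 0 and 0 in the WT series alone. Lower calls came to 40 with a minimum count of 10, 160 without a filter, 17 among cells with at least 500 genes and 47 with 2 CD3 UMIs. Leaving out each mouse gave 46 to 72 higher and 52 to 81 lower. Against killer-type cells (51 and 20), DESeq2 gave 8 higher, RLE factors 25, scaling from all genes 306, no replicate block 7 and sets of at least 20 cells 19 higher and 13 lower; leaving out each mouse gave 15 to 56 and 11 to 16. In the granzyme contrast (40 and 89) the counts were 8 and 54 with DESeq2, 24 and 53 without a filter, 13 and 9 without the replicate block, 8 and 14 with at least 500 genes, 24 and 55 with 2 CD3 UMIs, 7 and 11 without cells holding UMIs of other types, 18 and 53 with a Trac UMI and 19 and 41 with a Cd8 UMI. There, higher calls were 19 with a minimum count of 10 and lower calls 36 in depth-matched cells, and leaving out each mouse gave 22 to 42 and 36 to 100. Scaling from all genes gave 78 and 62 in the main and 30 and 124 in the granzyme contrast. The CB minus WT difference in the CD3 share (1.48 points) was -0.800 with 3 cytotoxic UMIs and ran from -8.96 without replicate 8 and -8.11 without replicate 3 to 11.1; that in the share of kept cells ran from -6.28 to -0.777 with each mouse left out and was -0.577 among cells with at least 500 genes. The cause of these shifts was not tested. Against killer-type cells, at least 500 genes per cell could not be fitted. The shallow cells limit every share of cells with a UMI.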

Other observations

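Ribosomal protein genes, a list chosen after their values were seen, were compared between the sets, and their counts depended on the settings. Of 76 tested, 34 were lower in granzyme-positive than in granzyme-free cells and 0 higher, with a median log2 difference of -0.45 against -0.04 over all genes tested (edgeR, threshold 0.05), where 3.56% of all genes were lower. The count was 13, 17 and 11 without replicate 2, 4 and 5, 11 in depth-matched cells, 6 without cells holding UMIs of other types, 3 among cells with at least 500 genes and 0 without the mouse block. Against CD3-negative killer-type cells, 24 of 76 were higher in cytotoxic T cells and 0 lower, with a median of 0.55 against 0.23 over all genes, of which 1.58% were higher. This count was 3, 2 and 2 without replicate 2, 4 and 5, 2 with DESeq2, 11 with RLE factors, 71 with scaling from all genes and 0 without the mouse block. Against CD3 cells without cytotoxic UMIs, 0 of 76 passed in either direction, with a median of 0.08. There 2 were higher among cells with at least 500 genes, 1 with a minimum count of 10, and 22 were higher and 1 lower against contrast cells not limited in epithelial and C1q UMIs. None of 12 tested cell cycle genes passed in the granzyme contrast (1 was higher without replicate 1 or where a Trac UMI was required), where their median log2 difference was 0.67 against -0.04 over all genes, and the summed level of the 20 listed genes was 2223 to 5615 CPM in granzyme-positive and 1681 to 5860.1 CPM in granzyme-free cells. A UMI of Mki67 or Top2a was found in 54 cytotoxic T cells (7.12%) and in 5.57% of the deeper epithelial reference cells.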
